A study of Mus musculus with 6 samples.

Results

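The genes of acetylcholine synthesis, transport and breakdown were examined in the mouse habenula, a small brain region above the thalamus. They were taken by symbol from the deposited table: Chat, Slc18a3, Slc5a7, Slc10a4, Ache and Bche, 6 of 55359 genes. RNA was sequenced from habenula of C57BL/6 mice aged 2 months, in 3 libraries labelled wild type (WT) and 3 labelled Tet2 cKO, a conditional knockout of Tet2. Tet2 encodes an enzyme that oxidises methylated cytosine in DNA. All animals were housed free of specific pathogens and no treatment is named. The sources used here do not give the driver and cell type of the deletion, the exons removed, or the animals behind each library, and groups are named by their labels. The p-values therefore measure the spread between these libraries, which may be technical.

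Acetylcholine is made from choline and acetyl-CoA by choline acetyltransferase (Chat) and is loaded into synaptic vesicles by the vesicular acetylcholine transporter (Slc18a3). After release it is split by acetylcholinesterase (Ache) and, more slowly, by butyrylcholinesterase (Bche). The choline is taken back into the terminal by the high-affinity choline transporter (Slc5a7). Slc10a4 is an orphan relative of the bile acid transporters that sits on synaptic vesicles of cholinergic and monoaminergic neurons. In the habenula, cholinergic neurons lie in the ventral part of the medial habenula, project to the interpeduncular nucleus and also release glutamate.

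Chat and Slc18a3 form a single locus. On GRCm38 (GENCODE M21), Chat (ENSMUSG00000021919) spans chromosome 14, 32408203 to 32465989, minus strand. The single exon of Slc18a3 (ENSMUSG00000100241; 32462438 to 32464850, same strand) lies inside the Chat intron from 32462043 to 32465806, downstream of 1 Chat exon. No exon is shared, so mature reads of each gene can be counted apart, while unspliced Chat RNA would fall on Slc18a3 as well. Slc5a7 (ENSMUSG00000023945) lies on chromosome 17, 54273590 to 54299034, minus strand, and Slc10a4 (ENSMUSG00000029219) on chromosome 5, 73006883 to 73012955, plus strand. Ache (ENSMUSG00000023328) also lies on chromosome 5, 137287519 to 137294466, plus strand. Its exons overlap the gene Gm42456 on the opposite strand, which stood at 0.29 to 1.45 FPKM. How reads in the shared stretch were counted is not given, and their part in the Ache level was not tested. FPKM is the count scaled by exon length and by the library total. Bche (ENSMUSG00000027792) lies on chromosome 3, 73635808 to 73708415, minus strand.

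The sequence upstream of the transcription start is shown for the 3 genes whose levels varied together (Chat, Slc18a3, Slc5a7) and for Slc10a4, the only gene of the 6 whose groups did not overlap. Capitals mark CpG dinucleotides, the main site of cytosine methylation. The stretches come from RefSeq windows on GRCm38.p6, at chr14:32465990-32466159 (minus strand), chr14:32464851-32465100 (minus), chr17:54299035-54299284 (minus) and chr5:73006654-73006882 (plus), and read 5′ to 3′ along the gene. An exon of Gm2990 on the opposite strand reaches into the Slc18a3 stretch, and Gm2990 stood at 0.62 to 0.96 FPKM.
Chat: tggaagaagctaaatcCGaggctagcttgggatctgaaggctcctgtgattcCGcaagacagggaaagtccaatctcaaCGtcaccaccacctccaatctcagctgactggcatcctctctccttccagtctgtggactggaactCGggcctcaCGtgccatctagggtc
Slc18a3: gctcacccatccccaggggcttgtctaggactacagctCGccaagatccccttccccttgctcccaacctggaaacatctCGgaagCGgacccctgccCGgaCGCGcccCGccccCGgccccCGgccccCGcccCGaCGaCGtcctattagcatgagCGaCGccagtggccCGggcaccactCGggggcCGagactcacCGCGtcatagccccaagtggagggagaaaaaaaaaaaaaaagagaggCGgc
Slc5a7: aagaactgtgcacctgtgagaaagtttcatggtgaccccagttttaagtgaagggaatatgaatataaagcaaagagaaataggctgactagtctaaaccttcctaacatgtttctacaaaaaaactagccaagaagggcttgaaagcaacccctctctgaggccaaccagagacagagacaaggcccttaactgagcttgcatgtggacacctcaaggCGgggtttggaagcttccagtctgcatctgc
Slc10a4: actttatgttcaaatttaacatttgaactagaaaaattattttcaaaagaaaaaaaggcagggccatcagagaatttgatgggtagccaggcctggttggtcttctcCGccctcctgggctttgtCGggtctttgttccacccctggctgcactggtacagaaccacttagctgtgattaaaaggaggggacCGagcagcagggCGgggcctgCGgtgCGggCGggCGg

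These upstream sequences differed widely in CpG content. The full RefSeq window, from 250 bases before the start to 50 after it, held 27 CpGs at Slc18a3, 10 at Chat and 1 at Slc5a7, the genes whose levels varied together. It held 18 CpGs at Slc10a4, 30 at Ache and 8 at Bche. The Ache window, at 137288004 to 137288303, lies inside the gene as GENCODE places it, downstream of the start at 137287519. The median over 32851 windows of the same table was 7. The GC box GGGCGG (both strands) occurred 2 times at Slc18a3, 4 times at Slc10a4 and Ache, 2 times at Bche and not at Chat or Slc5a7, and 35.7% of all windows held it. The sequence TGACG, the core of the cyclic AMP response element (both strands), occurred once at Chat and once at Slc18a3 and was not found at the other members. It occurred in 20.8% of all windows. The sequence TATAAA, that of a TATA box, occurred once at Slc5a7 and at no other member, and in 13.6% of all windows. At Slc5a7 it lay in the part of the printed stretch far from the start. The search took no account of distance from the start, so these matches are sequences and not established promoter elements. DNA methylation was not measured here.

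Library totals were 16089676 to 17917987 counts. Tet2 itself was not lower in the Tet2 cKO libraries. It stood at 3.45, 3.46 and 3.71 FPKM in the WT libraries and 4.47, 4.02 and 3.96 FPKM in those labelled Tet2 cKO. The count covers the whole gene, so it does not test the deletion. Markers of medial habenula neurons were present in every library, all 12 of 12 being tested, and the mean of their log2(FPKM + 0.1) was 4.62, 4.86 and 4.001 in the WT libraries and 4.70, 4.27 and 4.59 in the Tet2 cKO libraries. WT replicate 3 was the lowest of the 6 libraries for 10 of the 12 markers, and 28.8% of all tested genes were lowest there. Its mitochondrial share of counts was 7.66%, against 5.43% to 6.44% in the other libraries, and its counts differed from those of the other WT libraries by a chi-square per gene of 16.33 and 17.33, against 3.74 between those 2. The part of these differences in the results was not tested, and values are given without that library where it moves them most. In bulk tissue, fewer cells of a type and less RNA per cell cannot be told apart.

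The 6 genes spanned a wide range of levels in this bulk tissue, with the breakdown enzyme far above the synthetic one. Markers of neurons of the neighbouring thalamus summed to 286 to 314 FPKM in the WT libraries and 270 to 322 FPKM in the Tet2 cKO libraries. Which cells each level came from was not tested. Over the 6 libraries Ache stood at a mean of 30.7 FPKM, Slc5a7 at 9.16, Slc18a3 at 3.81, Chat at 3.52, Bche at 1.42 and Slc10a4 at 0.932. The median of all tested genes was 6.3 FPKM, so Ache and Slc5a7 lay above it and the other 4 below. Ache exceeded 89.6% of the tested genes, Slc5a7 62.5%, Slc18a3 34.0%, Chat 31.5% and Bche 8.2%. Slc10a4 fell under the filter for testing, a mean of 1 FPKM over the libraries, so 5 of 6 members passed it. Ache and Slc5a7 did not overlap in range, nor did Slc5a7 and Slc18a3. Slc18a3 and Chat overlapped, Slc18a3 being higher in 4 of 6 libraries, and their order is not resolved. Chat was above Bche in 6 of 6 libraries and Bche above Slc10a4 in 5 of 6, with overlapping ranges.

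**Figure D1:**
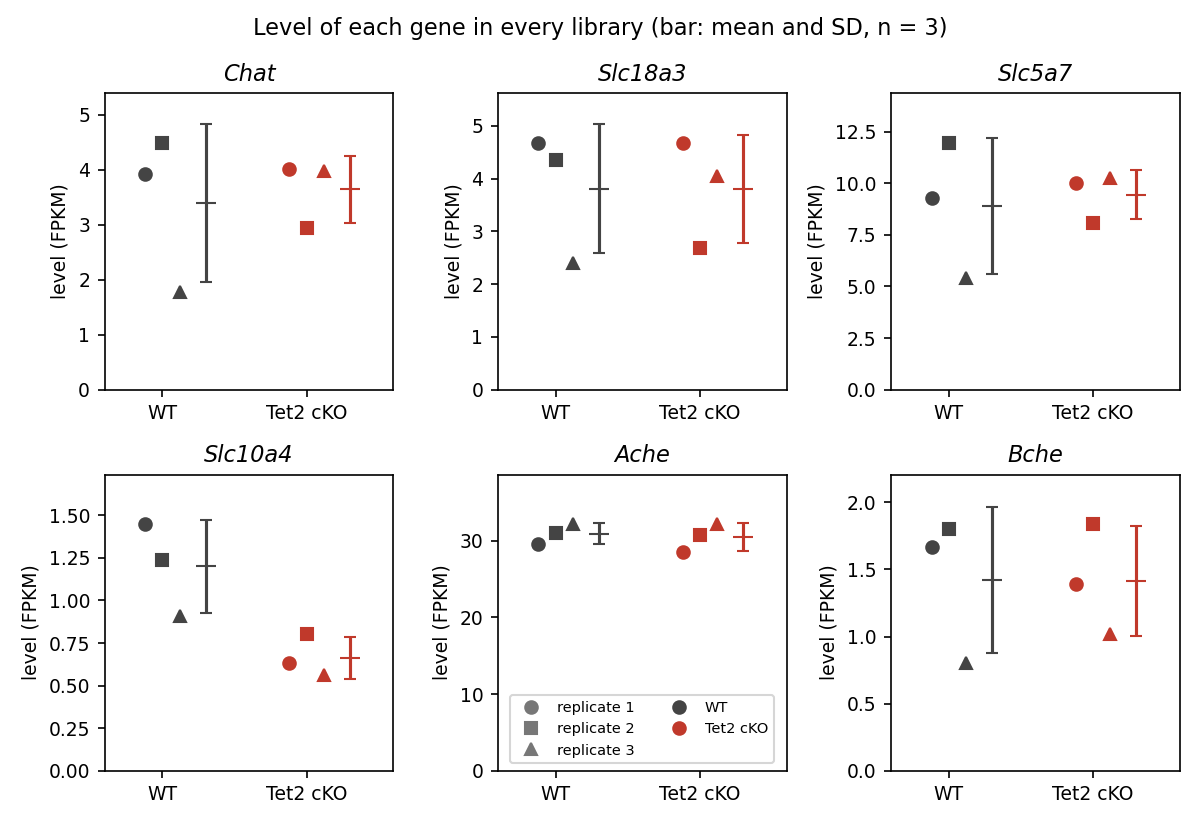
Level in FPKM of the 6 acetylcholine genes in each WT (grey) and Tet2 cKO (red) library, with marker shape for the replicate and a bar for the mean and SD (n = 3). Slc10a4 is the only panel in which the groups do not overlap, and WT replicate 3 is the lowest point for Chat, Slc18a3, Slc5a7 and Bche.

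Chat and the transporters that serve it did not differ detectably between the libraries labelled Tet2 cKO and WT. The comparison is between labels, since the deletion of Tet2 was not tested in these libraries. Chat, the synthetic enzyme, stood at 3.93, 4.49 and 1.77 FPKM in the WT libraries and at 4.02, 2.94 and 3.98 FPKM in the Tet2 cKO libraries. The Tet2 cKO values lay inside the WT range. The log2 difference was 0.10 (SE 0.278; 95% interval -0.52 to 0.72), with an edgeR quasi-likelihood adjusted p = 0.9999. The interval runs from 0.696-fold to 1.65-fold, so moderate changes in either direction would not have been detected.

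Slc18a3, which fills vesicles with acetylcholine, stood at 4.67, 4.35 and 2.41 FPKM in the WT libraries and at 4.68, 2.68 and 4.06 FPKM in the Tet2 cKO libraries. The groups overlapped almost fully, each with a single low library. The log2 difference was -0.01 (SE 0.263; 95% interval -0.60 to 0.58). Slc5a7, which recovers choline, stood at 9.28, 11.95 and 5.4 FPKM in the WT libraries and at 10, 8.09 and 10.23 FPKM in the Tet2 cKO libraries. Again the Tet2 cKO libraries lay inside the WT range, and the log2 difference was 0.08 (SE 0.227; 95% interval -0.43 to 0.59). The edgeR adjusted p = 0.9999 for each of these genes.

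All 3 differences were lower without WT replicate 3, and those of Chat and Slc5a7 changed sign. Without it the log2 difference was -0.20 for Chat, -0.25 for Slc18a3 and -0.17 for Slc5a7, and none passed edgeR (adjusted p = 0.902 for Chat and Slc5a7 and adjusted p = 0.9205 for Slc18a3).

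Slc10a4, the vesicle-membrane orphan transporter, was the only member whose groups did not overlap. It stood at 1.45, 1.24 and 0.91 FPKM in the WT libraries and at 0.63, 0.80 and 0.56 FPKM in the Tet2 cKO libraries, from 53, 42 and 34 counts against 23, 30 and 21. All 3 Tet2 cKO libraries lay below all 3 WT libraries, but the gap between 34 and 30 counts is within counting error, the exact Poisson 95% intervals being 23.6 to 47.5 and 20.2 to 42.8 counts. In the edgeR fit without a filter on low values the log2 difference was -0.86 (SE 0.304; 95% interval -1.47 to -0.26), or 0.55-fold. The unadjusted p was 0.00541 and the adjusted p = 0.683 over 31689 genes, so the gene did not pass. In that fit 2.03% of genes were lower at an unadjusted p under 0.05 and 0.155% passed after adjustment (0.101% as lower). In 3.26% of genes the Tet2 cKO libraries all lay below WT. With edgeR's own expression filter the log2 difference was -0.86 (adjusted p = 1 after rounding), and leaving out each library gave -1.03 to -0.70, with adjusted p = 0.104 at the lowest, without WT replicate 3.

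The summed levels of the ependymal, striatal and astrocyte marker lists did not overlap between the groups, while those of all other marker lists did. The sums were not tested, and no single marker passed the test. Of single tested genes, 6.8% had groups that did not overlap, and no such share was worked out for sums over lists. Markers of ependymal cells summed to 60.4 to 75.9 FPKM in the WT libraries and 44.8 to 54.3 FPKM in the Tet2 cKO libraries (8 of 8 lower). Striatal neuron markers summed to 30.9 to 41.1 and 25.9 to 27.3 FPKM (6 of 6 tested lower), and astrocyte markers to 279 to 328 and 339 to 352 FPKM (7 of 8 higher). By the mean of log2(FPKM + 0.1) the striatal groups overlapped, WT replicate 1 (1.053) lying below Tet2 cKO replicate 2 (1.088). The ependymal and astrocyte groups stayed apart by that mean. Aqp4 had the highest log2 difference of the astrocyte list, 0.569, and without it the astrocyte sums overlapped. Choroid plexus markers were lower in 8 of 8, with summed levels that overlapped (447 to 1392 and 169 to 820 FPKM). No marker of these lists was at 0 in all libraries, and their part in the Slc10a4 result was not tested. Monoaminergic markers, from the other neurons known to carry Slc10a4, summed to 7.16 to 9.48 FPKM in the WT libraries and 8.26 to 9.55 FPKM in the Tet2 cKO libraries. The 3 of 8 that were tested were Th, Ddc and Slc18a2.

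The cholinesterases behaved differently from each other in spread, and neither differed detectably with genotype. Ache stood at 29.53, 31.08 and 32.21 FPKM in the WT libraries and at 28.55, 30.81 and 32.20 FPKM in the Tet2 cKO libraries. The groups coincided, and the coefficient of variation over the 6 libraries was 4.75%, against 28.3% for Chat. The log2 difference was -0.03 (SE 0.0731; 95% interval -0.19 to 0.14; edgeR adjusted p = 0.9999), which corresponds to 0.876-fold to 1.10-fold. Without WT replicate 3 the value was 0.013. Bche stood at 1.67, 1.80 and 0.80 FPKM in the WT libraries and at 1.39, 1.84 and 1.02 FPKM in the Tet2 cKO libraries. Each group held a library near 1 FPKM or less and a library above 1.7. The log2 difference was -0.01 (SE 0.296; 95% interval -0.67 to 0.65; edgeR adjusted p = 0.9999), and without WT replicate 3 it was -0.29 (adjusted p = 0.902).

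Across the family, 0 of the 5 tested members passed the edgeR test at an adjusted p under 0.05. The share of all 14539 tested genes that passed was 0%, and 2.57% (374 genes) had an unadjusted p under 0.05, none of them a member. DESeq2 called 4 genes and limma 0, again with no member. The median log2 difference over the 5 members was close to that over all tested genes, -0.01 against 0.00. Among all tested genes 6.8% had groups that did not overlap, against 0 of these 5 members.

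**Figure D2:**
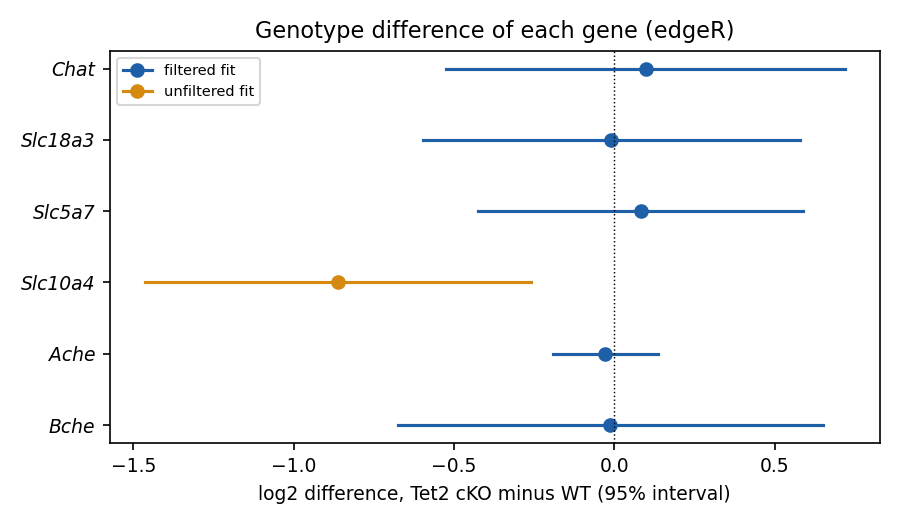
Log2 difference (Tet2 cKO minus WT) of each gene with its 95% interval from edgeR, blue for the filtered fit and orange for the unfiltered fit used for Slc10a4. The Ache interval is the narrowest, at -0.19 to 0.14, and Slc10a4 alone lies wholly below 0 before adjustment for the number of genes tested.

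Chat, Slc18a3 and Slc5a7 were lowest in the same 2 libraries, WT replicate 3 and Tet2 cKO replicate 2, and Ache was not. WT replicate 3 was the lowest library for 4 of the 6 members. Its level was 0.457 times the mean of the other 5 libraries for Chat, 0.590 times for Slc18a3, 0.545 times for Slc5a7 and 0.518 times for Bche, against 1.06 times for Ache and 0.972 times for Slc10a4. For the medial habenula markers this value ran from 0.463 (Nwd2) to 1.21 (Calb2). Tet2 cKO replicate 2 was the next lowest library for Chat, Slc18a3 and Slc5a7, and it was also the next lowest for the mean of the medial habenula markers.

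The genes whose pattern was nearest to that of Chat were then ranked. The measure was the root mean square difference between centred log2 CPM (counts scaled to library size) over the 6 libraries, among 7807 named genes at a mean of 5 FPKM or more. The nearest was Nwd2, at 0.058, followed by Gng8 (0.0998), Vav2 (0.105), Lrrc55 (0.110) and Scube1 (0.112). Nwd2 stood at 28.75, 34.06 and 13.03 FPKM in the WT libraries and at 26.95, 22.17 and 28.78 FPKM in the Tet2 cKO libraries, low in the same libraries as Chat. The median distance was 0.459. Slc5a7, at 0.116, would have ranked at position 7 and Slc18a3, at 0.195, at position 34. Bche (0.389) and Ache (0.487) would have ranked at 1086 and 5090. Of the 20 nearest genes, 7 were among the 12 medial habenula markers. The points are the same 6 libraries for every gene, so this likeness is a description. Without WT replicate 3, a check added after seeing the data, the median distance fell to 0.215. Lrrc55 was then at position 2, Gng8 at 10, Nwd2 at 12, Vav2 at 18 and Scube1 at 101. Slc5a7 was at position 22 and Slc18a3 at 344, against 3888 for Ache and 7747 for Bche, near the far end of the 7807 genes.

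**Figure D3:**
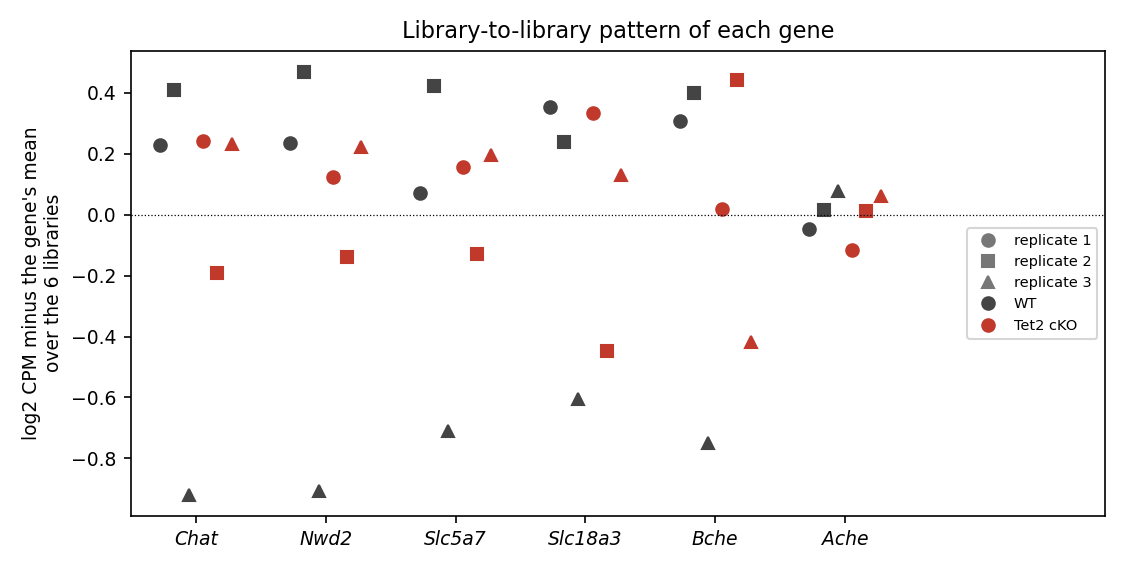
Log2 CPM of each gene minus its mean over the 6 libraries, for Chat, its nearest gene Nwd2 and 4 other members, with colour for genotype and marker shape for replicate. WT replicate 3 (grey triangle) lies lowest for every gene shown but Ache, whose 6 points lie close to 0.

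The ratio of Slc5a7 to Chat within a library varied less than Chat itself. Chat differed 2.54-fold between its highest and lowest library. The ratio of Slc5a7 to Chat was 2.36, 2.66 and 3.05 in the WT libraries and 2.49, 2.75 and 2.57 in the Tet2 cKO libraries, a 1.29-fold spread. Without WT replicate 3 these spreads were 1.53-fold for Chat and 1.17-fold for the ratio. The ratio of Slc18a3 to Chat, the genes of the shared locus, was 1.19, 0.969 and 1.36 in the WT libraries and 1.16, 0.912 and 1.02 in the Tet2 cKO libraries. These ratios overlapped between the groups, with log2 differences of -0.03 and -0.17 (exact two-sided permutation p = 0.8 and 0.4, adjusted p = 0.9 over 5 ratios). Without WT replicate 3 they were 0.049 for Slc5a7 and -0.06 for Slc18a3, whose ratio to Chat then had a 1.30-fold spread. The smallest p that 3 libraries against 3 can give is 0.1.

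Slc10a4 and Ache did not follow Chat. The ratio of Slc10a4 to Chat was 0.369, 0.276 and 0.514 in the WT libraries and 0.157, 0.272 and 0.141 in the Tet2 cKO libraries. These ratios did not overlap between the groups, but WT replicate 2 (0.276) and Tet2 cKO replicate 2 (0.272) nearly coincided. On the log2(FPKM + 0.1) scale used for the test they did overlap, at -1.776 and -1.756 in those libraries. The log2 difference on that scale was -0.95 (exact permutation p = 0.2, adjusted p = 0.9). The ratio of Ache to Chat was 7.51, 6.92 and 18.2 in the WT libraries and 7.10, 10.5 and 8.09 in the Tet2 cKO libraries, with the high value in WT replicate 3, where Chat was low. Its log2 difference was -0.21 with all libraries and 0.22 without WT replicate 3. Bche was 0.025 to 0.060 of Ache over the 6 libraries, with no difference between groups beyond their spread (log2 difference 0.05, exact permutation p = 0.8), and -0.32 without WT replicate 3.

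**Figure D4:**
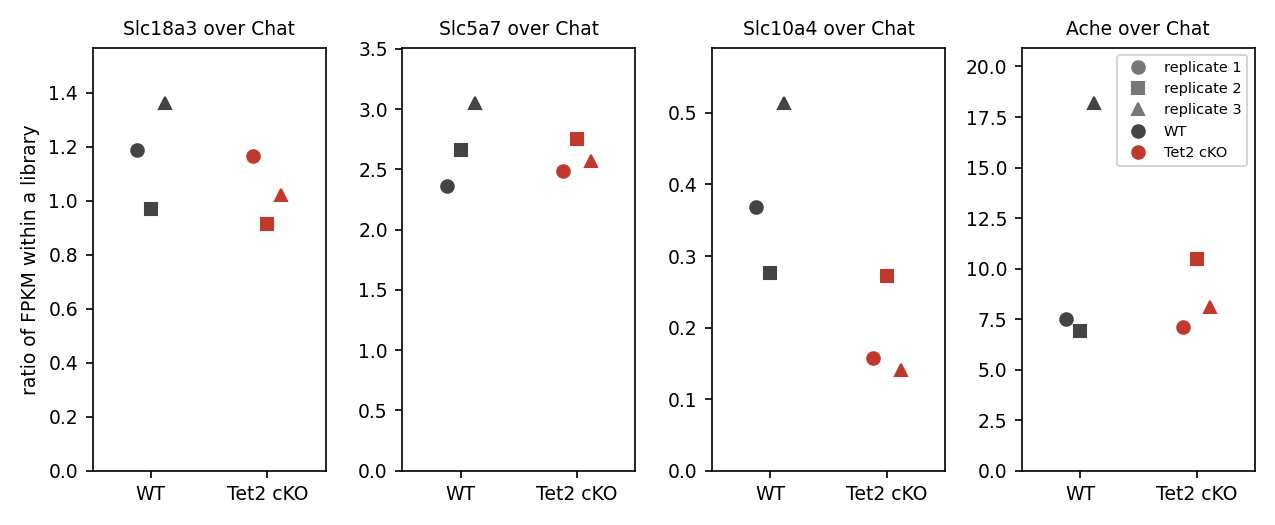
Ratio of FPKM to that of Chat in the same library for Slc18a3, Slc5a7, Slc10a4 and Ache, by genotype (colour) and replicate (marker). The Slc5a7 ratio stays between 2.36 and 3.05, while the Ache ratio reaches 18.2 in WT replicate 3 and the Slc10a4 ratio runs from 0.141 to 0.514.

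Set against the medial habenula markers of the same library, Chat lay at -2.79 ± 0.268 in the WT libraries and -2.63 ± 0.061 in the Tet2 cKO libraries, as the difference of log2(FPKM + 0.1) from the mean of the 12 markers (SD, n = 3 each). The difference of 0.16 gave an exact permutation p = 0.6 and an adjusted p = 1.0 over the 6 members, and it was 0.0094 without WT replicate 3. Slc18a3 and Slc5a7 differed by -0.01 and 0.13 on this scale (exact permutation p = 1.0 and 0.2), and by -0.05 and 0.06 without WT replicate 3. Slc10a4 lay at -4.14 ± 0.257 in the WT libraries and -4.92 ± 0.434 in the Tet2 cKO libraries, a difference of -0.78 (exact permutation p = 0.2, adjusted p = 0.6), and the groups overlapped. No member passed on this scale, where 0.1 is the smallest p possible.

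The list of choline and acetyl-CoA supply genes also holds genes that use choline, such as Chdh. Of its 18 genes 15 were tested, with 7 higher, 8 lower and none past the edgeR test. Their median log2 difference was 0.00, as it was over all tested genes. Gde1, a glycerophosphodiester phosphodiesterase, was the most abundant at 112 ± 9.15 FPKM in the WT libraries and 106 ± 7.32 FPKM in the Tet2 cKO libraries (SD, n = 3 each). Pdha1, a subunit of pyruvate dehydrogenase, which makes acetyl-CoA, stood at 66.8 ± 2.94 and 66.5 ± 1.09 FPKM. Chdh, which oxidises choline, had the smallest unadjusted p of the list (0.0613 by edgeR, log2 difference -0.32, SE 0.150). Of 5 genes that anchor cholinesterases, Prima1 and Dag1 were tested, 1 lower and 1 higher. Prima1, the membrane anchor of brain acetylcholinesterase, stood at 5.87 ± 1.36 and 5.68 ± 0.609 FPKM, whereas Colq, the collagen tail of the enzyme at muscle endplates, stood at 0.073 ± 0.040 and 0.033 ± 0.031 FPKM. Dag1, which encodes dystroglycan, stood at 13.8 ± 2.28 and 14.4 ± 1.05 FPKM.

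Receptor genes for acetylcholine did not pass either. Muscarinic receptors were 4 tested of 5, with 2 higher and 2 lower and a median log2 difference of -0.14. Chrm2 stood at 7.53 ± 0.854 FPKM in the WT libraries and 7.62 ± 1.10 FPKM in the Tet2 cKO libraries, and Chrm3 at 3.4 ± 0.401 and 3.78 ± 0.480 FPKM (SD, n = 3 each). Chrm4 had the smallest unadjusted p of that list (0.116 by edgeR), with a log2 difference of -0.51 (SE 0.293). Neuronal nicotinic subunits were 5 tested of 11, with 1 higher and 4 lower and a median of -0.02, the most abundant being Chrna4 (20.6 ± 1.39 and 20.2 ± 1.27 FPKM) and Chrnb2 (15.7 ± 1.95 and 16.6 ± 1.81 FPKM). Chrnb2 also had the smallest unadjusted p of its list, 0.510 by edgeR.

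Regulators of the cholinergic phenotype, listed together with the Tet genes, did not pass. Of these 7 of 16 were tested, 2 higher and 5 lower, with a median of -0.02. Cntfr, the receptor for ciliary neurotrophic factor, stood at 26.5 ± 0.921 and 25.8 ± 1.51 FPKM (SD, n = 3 each). Pou4f1, the habenular transcription factor, stood at 12.8 ± 4.77 and 12.5 ± 2.56 FPKM, with WT replicate 3 the lowest. Tet2 had the smallest unadjusted p, 0.0174 by edgeR (log2 difference 0.22, SE 0.0768, adjusted p = 0.9999). Lhx8, which specifies forebrain cholinergic neurons, was at 0 FPKM in all 6 libraries, and Gbx1 and Nkx2-1 stood at 0.033 ± 0.015 and 0.013 ± 0.023 FPKM in WT. Isl1 stood at 0.147 ± 0.075 FPKM in WT. The 8 forebrain cholinergic markers summed to 10.9 to 15.8 FPKM in the WT libraries and 12.9 to 14.8 FPKM in the Tet2 cKO libraries, most of it from Zic4 (8.49 ± 1.94 FPKM in WT).

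Paralogues of the members were 10 tested of 15, with 4 higher, 6 lower and none past the test, and a median log2 difference of -0.03. Nlgn2 and Nlgn3, neuroligins with a cholinesterase-like domain, stood at 36.0 ± 2.53 and 8.41 ± 0.876 FPKM in the WT libraries and at 37.0 ± 2.56 and 8.23 ± 0.601 FPKM in the Tet2 cKO libraries (SD, n = 3 each). Slc10a3 had the smallest unadjusted p of the list (0.0808 by edgeR), at 1.73 ± 0.297 FPKM in the WT libraries and 1.30 ± 0.119 FPKM in the Tet2 cKO libraries, a log2 difference of -0.42 (SE 0.214). The vesicular monoamine transporter Slc18a2, a relative of Slc18a3, stood at 2.78 ± 0.197 and 2.96 ± 0.332 FPKM.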

How the data were processed

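RNA from the habenula was sequenced in 3 WT and 3 Tet2 cKO libraries. The deposited table holds raw counts, whole numbers per Ensembl gene, and FPKM values made by the authors, per the file headers. These FPKM equal the count scaled by exonic size and library total within 0.005. The submitters' processing notes name HISAT2 (2.0.1), SAMtools (0.1.19), cutadapt (1.9.1), FastQC (0.10.1) and build mm10. The counter, the annotation and strand use: not given in the sources used here. The table's start positions differ from those of GRCm38 for all 6 members, while widths and exonic sizes match GENCODE M21, so positions are those of GENCODE M21.

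Counts of 14539 genes at a mean of 1 FPKM or more were tested with edgeR 4.0.16 (TMM, quasi-likelihood, two-sided, no covariate) in R 4.3.3, with Benjamini-Hochberg adjustment at 0.05. Slc10a4 lay under that filter and was tested in the fit of all 31689 genes with a count. Alternatives were DESeq2 1.42.0, its size factors, limma 3.58.1 on log2(FPKM + 1) and log2(FPKM + 0.1), no filter, edgeR's own filter, a replicate block and leaving out each library. Ratios used log2(FPKM + 0.1) and an exact permutation test. The edgeR script was tested on simulated data. Libraries of a group differed by a chi-square of at least 3.74 per gene, so none was a copy. Poisson intervals cover counting error only.

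The members and gene lists were chosen with earlier results of these data known. Named genes were the members, Tet2, the 2 most abundant tested genes and the smallest p of each pathway list, and the 5 genes nearest to Chat. Other named genes were chosen after their values were seen. RefSeq promoter windows matched 6 of 6 members. They are given here only where GENCODE annotates no untranslated region.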

Additional observations from a re-analysis of the deposited data

How the results depend on the processing

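No member passed a test in any setting run. Slc10a4 stayed negative throughout, at -0.40 by limma on log2(FPKM + 1). For the other 5 members the differences were small enough for the sign to change. For Slc18a3 the log2 difference was 0.011 and 0.018 by limma on log2(FPKM + 1) and log2(FPKM + 0.1), and for Bche 0.0090 and 0.032. With the replicate number as a block these were 0.0064 and 0.014, and for Chat, Slc5a7, Slc10a4 and Ache 0.16, 0.14, -0.86 and -0.03. The block called 0 genes. The labels do not say whether same-numbered libraries were paired. Their deviations from the group means correlated at 0.003, 0.091 and -0.084, inside the range of the other pairs (-0.138 to 0.115). These correlations cannot show whether a batch was shared. On leaving out 1 library at a time the range was -0.20 to 0.34 for Chat, -0.25 to 0.19 for Slc18a3, -0.17 to 0.35 for Slc5a7, -0.066 to 0.022 for Ache and -0.29 to 0.18 for Bche. The count of all genes called was 0 with edgeR, 4 with DESeq2, 49 with no filter, 2 with edgeR's own filter (added after seeing the data) and 0 to 3 on leaving out each library, with 1 without WT replicate 2 and 3 without WT replicate 3. The causes were not tested.

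Of the ratios, with a pseudocount of 1 Slc5a7 to Chat was at 0.0015, Slc10a4 at -0.53 to Chat and -0.42 against the medial habenula markers, and Bche against the markers at -0.013. Leaving out 1 library at a time gave -0.30 to -0.06 for Slc18a3 to Chat, -0.12 to 0.049 for Slc5a7 to Chat, -0.45 to 0.22 for Ache to Chat and -0.32 to 0.29 for Bche to Ache. Against the markers it gave 0.0094 to 0.25 for Chat, 0.058 to 0.20 for Slc5a7, -0.078 to 0.10 for Slc18a3, -0.22 to 0.23 for Ache and -0.31 to 0.24 for Bche. With the replicate block each ratio difference is the same by construction, and the smallest possible p is 0.25. Depth limits Slc10a4, with 21 to 53 counts, more than the other members.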
